A study of Mus musculus with 20 samples.

Results

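Among the cells of 4T1.2 breast tumors, 272 cells combined a high Arg1 count with Csf1r and with little C1q and little MHC class II. They were chosen by measured values in the tumor table: a summed S100a8 and S100a9 count under 300, a Csf1r count of at least 1, a summed C1qa, C1qb and C1qc count under 30, a summed H2-Aa, H2-Ab1 and H2-Eb1 count under 20 and an Arg1 count of at least 5. They were 272 of the 3811 cells that met the S100 and Csf1r limits, and 272 of all 10885 tumor cells. Arg1 encodes arginase 1, which cleaves arginine to ornithine and urea, and lies at chr10:24915221-24927484 on the minus strand of GRCm38. The working label called these cells monocyte-like, but most monocyte markers were lower than in the Arg1-low cells described below, although most were higher than in C1q-high cells, so they are called Arg1-high cells here.

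The tumor cells were sorted as tumor-associated macrophages (TAM) from 4 female BALB/c mice bearing the 4T1.2 cancer, and were sequenced as 4 single-cell RNA libraries with no other treatment. The libraries carry the numbers 2 to 5, which could not be matched to single mice, so p-values rest on the spread between these libraries in the fits described below. Macrophages cultured from bone marrow B cells (B-MF) or from monocytes (Mo-MF) in medium conditioned by 4T1.2 cells, with 2 libraries each, gave values in cells that the choice had not used. The tumor libraries held between 2318 and 3180 cells with median totals of 7651 to 8266 corrected counts, 13 cell barcodes occurred in more than 1 of them, and 1 Arg1-high cell carried such a barcode.

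Macrophages of tumors descend largely from blood monocytes, which enter the tissue with Ccr2 and Ly6c2 and then gain macrophage genes such as C1q, Mrc1 and Trem2. Arginase 1 depletes arginine that T cells need and feeds the synthesis of polyamines and proline. It is used as a marker of suppressive and tissue-repairing myeloid cells, and low oxygen is among the known signals that raise it.

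The other 3539 cells within the S100 and Csf1r limits fell into 3 classes. The Arg1-low cells (1920) met the same C1q and MHC class II limits but had an Arg1 count under 5, the MHC-II-high cells (1105) had little C1q and a summed MHC class II count of at least 20, and the C1q-high cells (514) had a summed C1q count of at least 30. In the order of libraries 2, 3, 4 and 5, which holds for all lists of 4 values below, the Arg1-high cells numbered 131, 49, 62 and 30. They made up 8.501% (exact 95% binomial interval 7.16 to 10.0), 8.43% (6.30 to 10.997), 7.42% (5.73 to 9.41) and 3.52% (2.39 to 4.98) of the Csf1r+ cells, where the intervals cover counting error alone. Library 5 had the lowest share, and its interval did not overlap those of the other libraries.

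The cutoff at 5 ran through a sparse part of the Arg1 distribution. Within the C1q-low and MHC-II-low gate 1794 cells had no Arg1 count and 87 had 1, whereas 23 cells lay just below the cutoff with 3 or 4 counts and 21 lay just above it with 5 or 6. The median Arg1 count of the Arg1-high cells was 23.5 and the highest was 150. Near the other limits, 91 Arg1-high cells had exactly 1 Csf1r count and 109 further cells missed only that limit with a Csf1r count of 0. Between 15 and 19 summed MHC class II counts there were 15 Arg1-high cells. An Arg1 count of at least 5 was also found in 83 MHC-II-high and 60 C1q-high cells.

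All values below are mean converted counts per cell in a library, that is, deposited values brought back from the log scale. A further 5 genes had been given as markers together with Arg1, and since they were chosen for this pattern their levels are a description without a test. Il7r, a receptor subunit shared by IL-7 and TSLP, was at 4.10, 4.47, 4.16 and 5.30 in Arg1-high cells and at 1.49, 0.609, 0.913 and 1.26 in Arg1-low cells. Inhba, the subunit of activin A, was at 7.02, 7.29, 8.5 and 8.27 against 4.45, 1.16, 2.52 and 1.24. Arg1-high cells were thus above Arg1-low cells in each library for both genes, without overlap between the groups.

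The eosinophil-attracting chemokine Ccl24 was at 12.3, 10.2, 7.29 and 11.1 in Arg1-high cells and at 4.15, 4.02, 2.86 and 2.96 in Arg1-low cells. Thbs1, which encodes the matrix glycoprotein thrombospondin 1, differed less, with 10.6, 10.7, 14.4 and 11.4 against 9.12, 5.45, 7.62 and 7.70. The heparan sulfate proteoglycan Sdc1 was at 1.80, 1.82, 2.21 and 2.13 against 1.70, 1.17, 1.03 and 1.33, the closest pair of the 5 genes. All 5 genes were lowest in C1q-high cells on the mean over libraries.

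**Figure D1:**
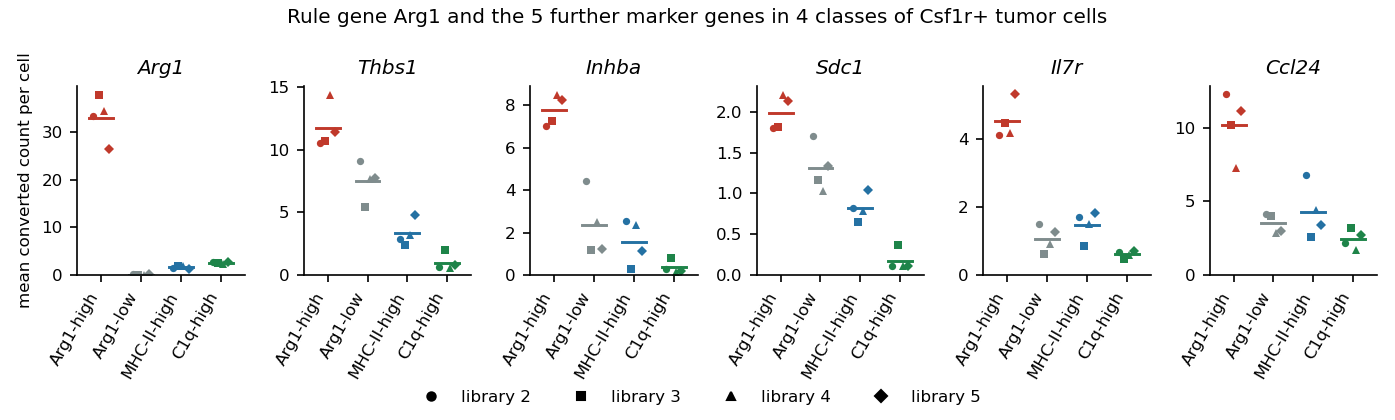
Mean converted count per cell of Arg1 and of the 5 further marker genes in the 4 classes of Csf1r+ tumor cells. Symbols are the 4 libraries and lines their means; for each gene all Arg1-high values lie above all Arg1-low values, by the narrowest margin for Sdc1.

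A count of Il7r was found in 73.9% of the Arg1-high cells, against 29.5% of Arg1-low, 39.5% of MHC-II-high and 23.9% of C1q-high cells. After thinning every cell to 4000 counts the shares were 61.4%, 22.0%, 27.9% and 16.7%. The thinned counts were already corrected for depth, so thinning does not even out the original sequencing depth. In tumor B cells without Csf1r, whose stage was not read, 1.78% of 225 cells had a count. Their median total was 7503 counts, against 8578 in Arg1-high cells. The share was 6.06% in the 5030 cells with a summed S100a8 and S100a9 count of at least 300 and 65.4% in T cells without Csf1r. The 5 markers did not mark the same cells throughout: at least 3 of the 5 were detected in 68.7%, 73.5%, 67.7% and 90.0% of Arg1-high cells, and all 5 in 16.03%, 18.4%, 19.4% and 10.0%.

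Il7r and Sdc1 are also known from T cells, plasma cells and epithelium, so the defining markers of those types were read in the same cells. The 9 T and NK cell markers in the table summed to between 0 and 0.0204 per Arg1-high cell in the 4 libraries (0.0105 to 0.212 in Arg1-low cells), with Cd3d, Cd3g, Trbc2, Nkg7, Klrb1c, Ncr1 and Il2rb at 0. The 4 plasma cell markers summed to 0 to 0.0408 (0 to 0.0248 in Arg1-low cells), with Jchain, Mzb1 and Ighg1 at 0. The 5 epithelial markers in the table summed to 0 to 0.133 (0.0337 to 0.0689) and 5 fibroblast markers to 0 to 0.0687 (0.0120 to 0.0240). The 8 B-cell markers summed to 0.0305 to 0.204 (0.198 to 0.309), with Cd79a, Cd79b, Ms4a1, Pax5 and Ebf1 at 0 in Arg1-high cells.

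The 10 dendritic cell markers summed to 0 to 0.0484 in Arg1-high cells and to 0.121 to 0.248 in Arg1-low cells. The 2 eosinophil markers in the table summed to 0 to 0.0323 (0.00601 to 0.0303), and the 5 basophil and mast cell markers were not in the table. The 9 neutrophil markers summed to 2.21, 7.63, 6.06 and 7.97 in Arg1-high and to 2.71, 7.50, 4.38 and 5.20 in Arg1-low cells, with Camp at 0. They were higher in Arg1-high than in Arg1-low cells in libraries 3, 4 and 5. The summed S100a8 and S100a9 mean was 19.5, 63.4, 59.7 and 63.9 against 26.6, 53.1, 36.2 and 32.5, likewise higher in libraries 3 to 5 and lower in library 2. The part of neutrophil transcripts in the results was not tested. Csf3r, a neutrophil receptor, was at 0.466, 0.959, 0.935 and 0.667 in Arg1-high cells against 0.830, 1.546, 1.11 and 1.13 (log2 difference -0.56 ± 0.13 SE, limma, adjusted p = 0.00433). With cells of at least 2200 detected genes this difference was 0.052, and the call was lost.

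The same division was then used to ask which genes outside the rule moved with it. For each library the values were averaged over the cells of a class, and these means, plus 0.1 and on the log2 scale, entered a limma model with the library as a block and adjustment by Benjamini-Hochberg (BH), which applies to every adjusted p below. The 10 genes of the rule were left out. Against Arg1-low cells, 692 of 6641 genes were higher in Arg1-high cells (10.4%) and 1708 were lower (25.7%). Since the median gene differed by -0.13, the values were also centred on it, which gave 851 higher and 1270 lower genes and moved the share of higher calls from 28.8% to 40.1%. Against all other Csf1r+ cells together, 686 of 6504 genes were higher (10.5%) and 1421 lower (21.8%), and after centring, on a median of -0.12, 881 and 1067, a share of higher calls of 45.2% in place of 32.6%. A gene was called higher or lower than every other class where the contrasts with all 3 classes passed an adjusted p of 0.05 in the same direction, which held for 458 higher (6.90%) and 945 lower genes (14.2%). These comparisons share the Arg1-high cells, and their counts were not compared with each other. Genes were named by fixed rules on these same values.

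Pf4, which encodes platelet factor 4, had the largest difference of the named genes. Its mean count was 34.8, 16.5, 17.2 and 8.80 in Arg1-high cells and 0.644, 0.499, 0.493 and 0.678 in Arg1-low cells, a log2 difference of 4.68 ± 0.34 (SE, limma, adjusted p = 5.74e-07). It was also above C1q-high cells, which had 9.15, 5.94, 8.70 and 9.28 (1.07 ± 0.34, limma, adjusted p = 0.0143), although library 5 was below. Spp1, encoding the secreted phosphoprotein osteopontin, was at 16.7, 29.4, 18.8 and 6.23 against 1.75, 2.92, 1.59 and 0.880 in Arg1-low cells (3.16 ± 0.29, limma, adjusted p = 3.62e-06). Pdpn, the membrane mucin podoplanin, was at 2.05, 2.24, 2.61 and 0.933 against 0.291, 0.0854, 0.106 and 0.141 (2.99 ± 0.24, limma, adjusted p = 1.34e-06). Library 5 was lowest for all 3 genes in Arg1-high cells.

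Another 5 platelet markers summed to between 0.0305 and 0.0816 per Arg1-high cell, against 0.0168 to 0.0316 in Arg1-low cells. Mt2, a metal-binding metallothionein, was at 3.69, 4.16, 2.18 and 1.23 against 0.251, 0.267, 0.161 and 0.208 (3.05 ± 0.26, limma, adjusted p = 1.92e-06). Serpinb2, an inhibitor of plasminogen activators, was at 1.18, 1.29, 1.05 and 2.80 against 0.330, 0.292, 0.238 and 0.257 (2.04 ± 0.25, limma, adjusted p = 3.06e-05). Neither gene overlapped between the classes, but with Csf1r of at least 2 the Serpinb2 call was lost (1.23). Serpinb2 rested on few cells: in library 5 a single cell held 68 of the 84 counts, and without it the mean was 0.552, the lowest of the 4 libraries. Leaving out the top cell of each library gave means of 0.885, 0.625, 0.672 and 0.552. For Mt2 a single cell held 25 of the 37 counts of library 5, whose mean was 0.414 without it. Tnfrsf9, a costimulatory receptor, Plk2, a stress-responsive kinase, and Plpp3, a lipid phosphatase, were higher by 2.66 ± 0.26, 2.56 ± 0.29 and 2.14 ± 0.14 on the log2 scale, each in 4 of 4 libraries. Plpp3 was at 0.5 to 0.653 in Arg1-high cells and at 0.0496 to 0.0736 in Arg1-low cells. It reached the mean of 0.1 needed for testing through Arg1-high cells, so its call is a description and no separate support. Rgs1, a regulator of G-protein signaling, was higher than in Arg1-low cells by 2.51 ± 0.24, and against C1q-high cells its difference was 0.17 (limma, adjusted p = 0.561).

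Genes of the response to low oxygen and of glycolysis were mostly higher. Of 15 hypoxia response genes tested, 14 were higher than in Arg1-low cells, beside 10.4% of all genes, and none lower, with a median log2 difference of 0.98, and 13 were higher than in every other class, beside 6.90% of all genes. Ndrg1, a stress-responsive gene, was at 9.68, 8.39, 9.40 and 10.1 against 3.84, 3.36, 2.47 and 3.31 (1.52 ± 0.13, limma, adjusted p = 1.8e-06). Bnip3, a mitophagy receptor, was at 6.64, 5.45, 6.87 and 7.37 against 2.64, 3.35, 2.29 and 2.39 (1.28 ± 0.14, limma, adjusted p = 1.21e-05). Egln3, an oxygen-sensing prolyl hydroxylase, was at 1.95, 2.02, 2.11 and 3.1 against 0.785, 1.01, 0.572 and 0.674 (1.48 ± 0.16, limma, adjusted p = 1.21e-05). The 4 libraries did not overlap between the classes for any of these 3 genes.

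The vasodilating peptide gene Adm was higher by 1.58 ± 0.21 and the angiogenic factor Vegfa by 0.71 ± 0.11. Ero1l, an oxidase of the endoplasmic reticulum, differed by 1.25 ± 0.17, the transcriptional regulator Cited2 by 1.16 ± 0.13 and the cytokine Mif by 1.14 ± 0.11. Hif1a, whose product is mainly controlled through protein stability, was the 1 tested gene of the list not past the threshold, at 3.73, 4.10, 4.66 and 5.07 against 4.54, 3.58, 4.08 and 4.73 (0.05 ± 0.12, limma, adjusted p = 0.777).

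Of 16 glycolysis genes 13 were higher and none lower, beside 10.4% and 25.7% of all genes, with a median of 0.64. Pgk1, an ATP-forming enzyme of the pathway, was at 16.1, 16.04, 13.97 and 16.8 in Arg1-high cells and at 7.51, 6.80, 6.16 and 6.65 in Arg1-low cells (1.20 ± 0.11, limma, adjusted p = 4.03e-06). The glucose transporter Slc2a1 was at 5.07, 4.90, 5.26 and 6.70 against 3.04, 3.11, 2.22 and 2.57 (0.98 ± 0.14, limma, adjusted p = 0.000118). Gapdh was higher by 0.99 ± 0.10, Gpi1 by 0.96 ± 0.12 and Ldha by 0.64 ± 0.10. Against each other class 13 of the 16 genes were higher, beside 6.90% of all genes. In the comparison with Arg1-low cells, under all alternatives tried, between 13 and 14 hypoxia genes and between 11 and 14 glycolysis genes passed as higher. None passed as lower.

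**Figure D2:**
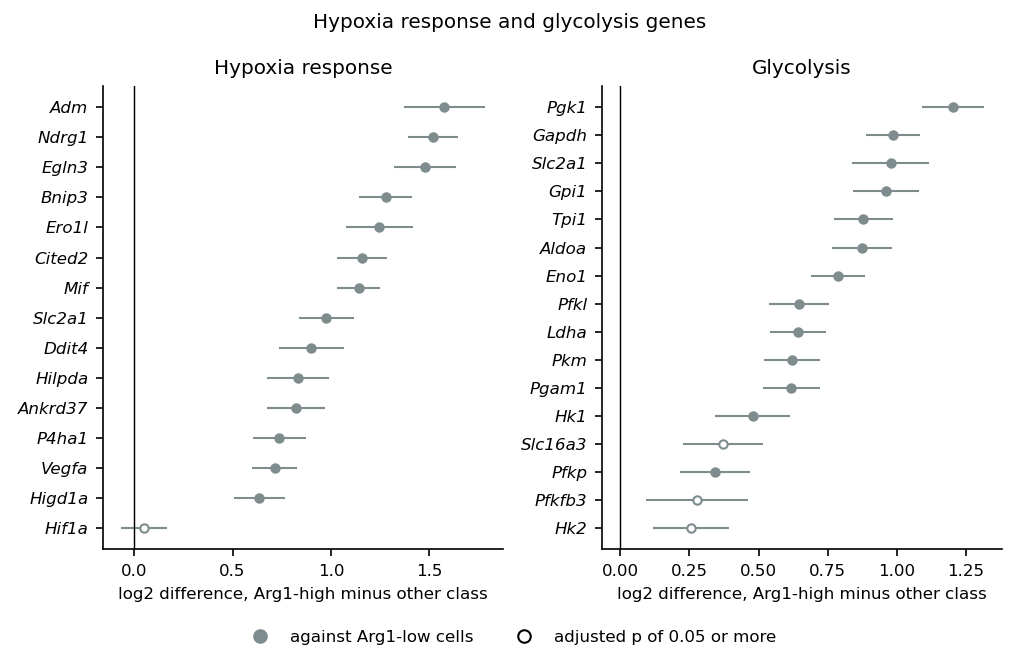
Log2 difference of mean converted counts, Arg1-high minus Arg1-low cells, for the tested hypoxia response (15) and glycolysis (16) genes. Points are limma estimates with standard errors from the shared fit over 4 classes and 4 libraries. Filled points have an adjusted p under 0.05: 14 and 13 genes, all above 0.

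As Bnip3 and Pgk1 are known to carry hypoxia response elements, the promoters of the group were read for the core of that element, ACGTG or GCGTG on either strand. The windows are 300 bases long, span a start site and lie mostly before it. They come from RefSeq on GRCm38.p6. A match was present in 27 of the 29 hypoxia and glycolysis genes with a window (93.1%) and in 46.7% of all 27025 genes with a window. Counted by window, the shares were 33 of 39 (84.6%) and 43.8%. The genes of the group were chosen for known roles in these pathways, and the windows were not matched for base composition. The shares are therefore no test and do not bear on these cells. The ACGTG match reads as a palindromic CACGTG on both strands and is then counted once per strand, and the core is short, so a match describes the letters of the window alone. The promoters of 3 genes, chosen after the values were seen, are shown because their genes carry the difference between the classes, with the matches in capitals. The Pgk1 window (chrX:106186850-106187149, plus strand) holds 2 matches, the Bnip3 window (chr7:138909457-138909756, minus strand) 5 and the Egln3 window (chr12:54203825-54204124, minus strand) 1.
Pgk1: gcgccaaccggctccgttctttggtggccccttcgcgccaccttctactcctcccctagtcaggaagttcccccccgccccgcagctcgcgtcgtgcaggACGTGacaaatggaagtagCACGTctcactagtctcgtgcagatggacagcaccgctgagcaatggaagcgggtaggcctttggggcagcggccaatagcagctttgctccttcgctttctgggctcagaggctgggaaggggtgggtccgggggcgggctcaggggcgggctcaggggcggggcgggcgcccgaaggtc
Bnip3: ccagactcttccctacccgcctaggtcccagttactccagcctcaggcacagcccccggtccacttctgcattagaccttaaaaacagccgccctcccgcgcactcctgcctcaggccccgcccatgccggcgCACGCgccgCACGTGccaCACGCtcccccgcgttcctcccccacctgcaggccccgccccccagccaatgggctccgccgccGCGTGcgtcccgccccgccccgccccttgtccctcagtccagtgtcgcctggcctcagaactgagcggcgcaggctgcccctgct
Egln3: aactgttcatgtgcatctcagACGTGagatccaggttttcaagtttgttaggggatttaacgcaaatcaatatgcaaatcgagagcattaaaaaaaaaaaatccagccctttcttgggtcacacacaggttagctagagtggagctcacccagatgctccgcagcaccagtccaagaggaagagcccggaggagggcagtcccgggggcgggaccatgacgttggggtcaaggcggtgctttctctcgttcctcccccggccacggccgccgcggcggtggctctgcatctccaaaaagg

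In contrast to glycolysis, the genes of the respiratory chain were lower. This list and that of the mitochondrial genome were drawn up after values had been seen. Of 76 nuclear-encoded respiratory chain genes 66 were lower than in Arg1-low cells and 1 was higher (median -0.54), and of 13 genes encoded by the mitochondrial genome 12 were lower (median -0.74), beside 25.7% of all genes. Ndufa4, a subunit associated with cytochrome oxidase, was at 1.27, 1.45, 1.34 and 1.03 against 3.06, 3.17, 3.56 and 3.44 (-1.32 ± 0.11, limma, adjusted p = 1.54e-06). Mitochondrial transcripts were 1.91%, 2.76%, 1.89% and 2.02% of the counts of Arg1-high cells and 2.93%, 3.42%, 3.21% and 2.99% in Arg1-low cells. Median detected genes per cell were 2380, 2522, 2490.5 and 2214.5 against 2602.5, 2493, 2555 and 2548. The part of these cell properties in the group differences was not tested. With cells of at least 2200 detected genes alone, 61 nuclear and 12 mitochondrial genes were lower, and after centring on the median gene 61 and 11.

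Arginine metabolism gave a mixed picture outside Arg1. Nos2, whose product uses arginine to make nitric oxide and which is often set against Arg1, was higher in Arg1-high cells too, at 2.13, 3.49, 4.35 and 6.17 against 0.910, 1.16, 0.904 and 0.952 (1.84 ± 0.24, limma, adjusted p = 6.94e-05). Odc1, the first enzyme of polyamine synthesis, was at 1.13, 0.735, 1.05 and 0.900 against 0.517, 0.515, 0.495 and 0.560 (0.75 ± 0.17, limma, adjusted p = 0.00349). In library 3 a single cell held 15 of the 36 Odc1 counts, and without it the mean was 0.4375, below that of Arg1-low cells. The antizyme inhibitor Azin1 was higher by 0.50 ± 0.10, a call lost in cells with at least 2200 detected genes (0.26). Ass1, which rebuilds arginine from citrulline, was lower (-0.54 ± 0.18, limma, adjusted p = 0.0324), a call lost in 9 alternatives, among them centring and leaving out library 2 (-0.59), 3 (-0.34) or 4 (-0.47). In all, 4 of 11 genes tested were higher and 1 lower, beside 10.4% and 25.7% of all genes. Within the Arg1-high cells 57.7% had a Nos2 count, against 20.4% of Arg1-low cells. The share was 2.67% in the B cells, 6.41% in T cells without Csf1r and 40.7% in the 5030 cells with a summed S100a8 and S100a9 count of at least 300.

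Heme and iron genes were higher in part, with 5 of 13 tested higher and none lower, beside 10.4% and 25.7% of all genes. Hmox1, which degrades heme, was at 19.5, 21.8, 17.03 and 28.7 in Arg1-high cells and at 4.56, 5.65, 5.48 and 6.07 in Arg1-low cells (1.96 ± 0.24, limma, adjusted p = 3.34e-05), and it was higher than in every other class. The ferritin chains Ftl1 (131.1, 127.7, 120.9 and 110.1 against 61.1, 62.3, 58.1 and 62.8) and Fth1 (224.4, 206.4, 207.0 and 198.9 against 113.3, 119.1, 98.5 and 113.0) were higher by 1.0 ± 0.10 and 0.92 ± 0.10. Blvrb, a biliverdin reductase, and Gclc, an enzyme of glutathione synthesis, were higher by 0.79 ± 0.17 and 0.80 ± 0.20, with the Gclc call lost in cells with at least 2200 detected genes (0.61) and with S100a8 and S100a9 under 100 (0.69). The other 8 did not pass. The iron exporter Slc40a1 was at 0.153, 0.388, 0.145 and 0.167 against 0.0991, 0.231, 0.188 and 0.248 (0.07 ± 0.36, limma, adjusted p = 0.900).

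Of 10 CXC chemokines 8 were higher than in Arg1-low cells and 2, Cxcl9 and Cxcl10, were lower, beside 10.4% and 25.7% of all genes. The 8 include Cxcl5 and Ppbp, whose calls are a description for the reason given below. Without library 4 or without library 5, 9 were tested and 7 were higher, and with a mean of at least 0.5, 6 of 8 were higher. Cxcl2, a neutrophil attractant, was at 160.2, 139.2, 168.0 and 163.1 against 84.0, 70.2, 86.9 and 72.9 (1.01 ± 0.20, limma, adjusted p = 0.00169). Cxcl1 was at 15, 11.7, 21.1 and 13.4 against 3.96, 1.98, 3.495 and 3.35 (2.23 ± 0.39, limma, adjusted p = 0.000584), and Cxcl3 was at 6.10, 16.8, 17.8 and 14.3 against 2.21, 3.51, 3.98 and 3.15 (1.98 ± 0.47, limma, adjusted p = 0.00501). These 3 genes separated the classes in all libraries.

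Cxcl5 was at 0.153, 0.184, 0.774 and 0.733 against at most 0.00481 in any library of Arg1-low cells. These means came from 6, 3, 2 and 2 cells with a count. It was through these cells that Cxcl5 reached the mean of 0.1 needed for testing, so its call is a description and no separate support. Ppbp, which like Pf4 is known from platelets, ranged from 0.0667 in library 5 to 1.20 in library 3, where a single cell held 34 of 59 counts, against 0.00721 to 0.0463. It too reached the mean of 0.1 through Arg1-high cells, so its call is likewise a description. The T-cell-attracting Cxcl9 was at 0.0458, 0.143, 0.0645 and 0.200 in Arg1-high cells against 0.700, 0.355, 0.740 and 0.440 (-1.64 ± 0.30, limma, adjusted p = 0.000881), and Cxcl10 at 0.321, 0.102, 1.26 and 0.533 against 3.17, 0.471, 3.49 and 3.52 (-2.09 ± 0.41, limma, adjusted p = 0.00126). Both were lower than in every other class, but with a pseudocount of 1 the Cxcl9 call against Arg1-low cells was lost (-0.48).

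Of 9 CC chemokines tested, without Ccl24, 6 were higher and 1 lower, beside those same shares. Ccl2, which attracts monocytes, was at 3.25, 3.43, 4.95 and 3.70 against 0.770, 1.33, 1.46 and 0.941 (1.70 ± 0.27, limma, adjusted p = 0.000231). Ccl7 was higher than in Arg1-low cells by 2.40 ± 0.37, with library 5 at 0.300 against 1.49 to 2.24 in the other libraries and 8 of its 9 counts there in a single cell, and its difference from C1q-high cells was -0.15 (limma, adjusted p = 0.751). Ccl4 and Ccl6 were higher by 1.70 ± 0.27 and 1.36 ± 0.20. Ccl3 was higher by 0.97 ± 0.31 (limma, adjusted p = 0.0238), a call lost without library 2 (0.73), 4 (0.91) or 5 (0.97). The T-cell chemokine Ccl5 was lower, at 0.176, 0, 0.0161 and 0 against 0.225, 0.113, 0.243 and 0.0800, a call lost without library 4 (-0.73, in place of -0.93) and with Csf1r of at least 2 (-0.23). Of the 23 Ccl5 counts in library 2, a single cell held 18. Ccl8 was lower than in the other Csf1r+ cells as a whole. Its values were 3.98 to 9.55 in C1q-high cells, whereas Arg1-low cells had 0.0138 to 0.177 against 0 to 0.0968.

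**Figure D3:**
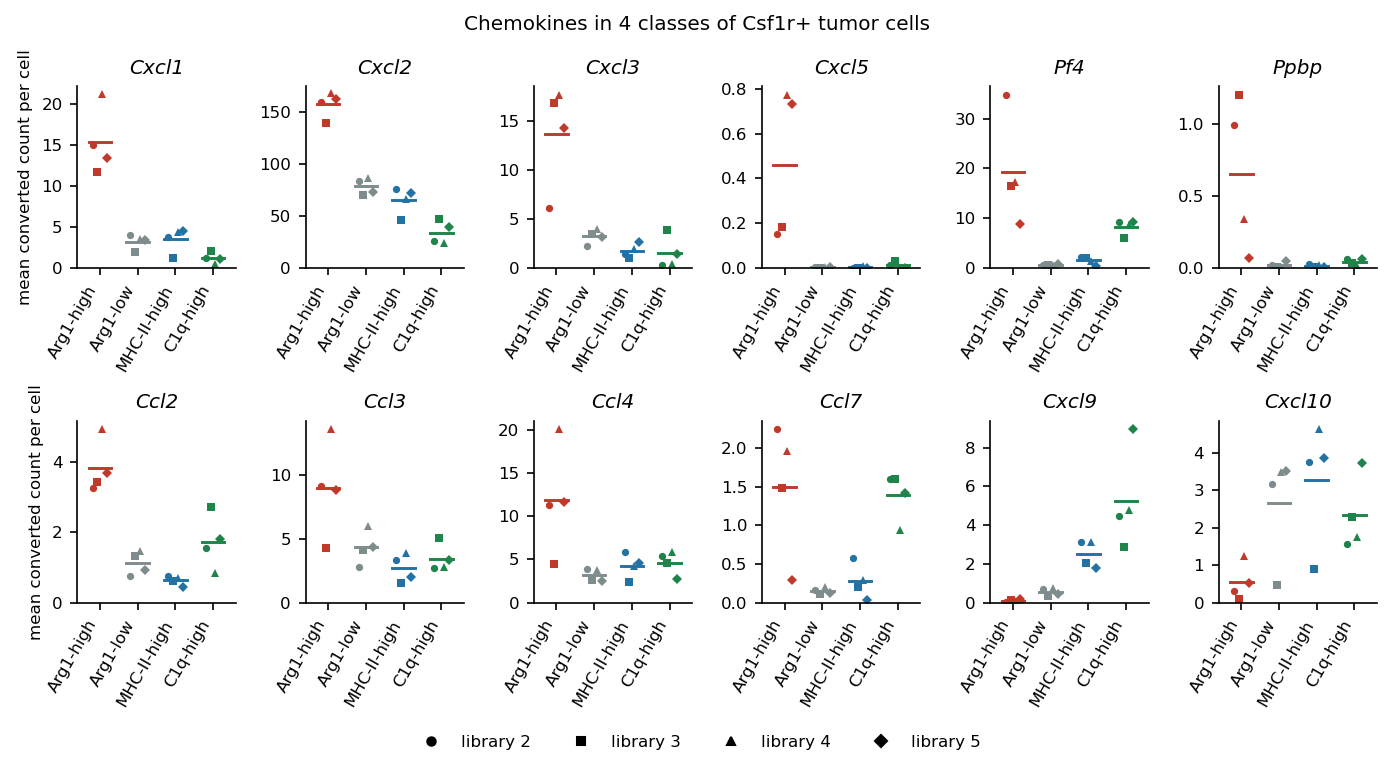
Mean converted count per cell of 12 chemokine genes in the 4 classes, with symbols for libraries 2 to 5 and lines for their means, on separate linear axes that start at 0. The CXC genes Cxcl1, Cxcl2, Cxcl3 and Cxcl5 are highest in Arg1-high cells, Cxcl9 and Cxcl10 are lowest there, and Pf4 and Ccl7 are also present in C1q-high cells.

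Of 13 inflammatory cytokine genes 7 were higher, beside 10.4% of all genes, and none lower. Ptgs2, the inducible cyclooxygenase, was at 7.64, 7.98, 10.2 and 16.97 against 3.86, 2.77, 4.89 and 3.42 (1.45 ± 0.37, limma, adjusted p = 0.00763), Il1a was higher by 1.36 ± 0.34 and Tnf by 1.25 ± 0.19. The anti-inflammatory cytokine Il10 was higher as well, by 1.04 ± 0.22, but in library 5 a single cell held 15 of the 18 counts and the mean without it was 0.103 against 0.126. Il1b, the most abundant cytokine of the list, was at 48.8, 43.6, 52.2 and 57.2 against 61.1, 36.9, 53.0 and 49.5 (0.03 ± 0.15, limma, adjusted p = 0.916). Without library 5 the number higher fell to 3 of 12, and the calls of Ptgs2 (1.17) and Il1a (1.15) were lost.

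Interferon-stimulated genes were lower or not past the threshold. Of 15 tested, 8 were lower than in Arg1-low cells, a share of calls that stands beside 25.7% of all genes, and none was higher. Ifit1 was at 0.0992, 0.0408, 0.226 and 0.0333 against 0.299, 0.303, 0.368 and 0.221 (-1.08 ± 0.19, limma, adjusted p = 0.000511), with Arg1-high below Arg1-low cells in each library. The number of lower genes was 2 without library 2, 3 without library 4, 7 without library 5 with 1 gene then higher, and 3 in cells with at least 2200 detected genes.

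Genes for matrix proteins, growth factors and proteases were higher in part. Without the given markers, 7 of 13 matrix and tissue repair genes were higher, beside 10.4% of all genes, and 1 lower. Fn1, encoding fibronectin, was at 11.5, 8.86, 9.03 and 7.13 against 3.69, 3.71, 3.35 and 3.97 (1.27 ± 0.20, limma, adjusted p = 0.000229). The matrix protein gene Ecm1 was higher by 1.62 ± 0.19 and the growth factor gene Ereg by 1.63 ± 0.29, but the Ereg call was lost with Arg1 of at least 10 (1.01) and in cells with at least 2200 detected genes (1.21). All 22 Ereg counts of library 5 came from a single cell.

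Of 16 genes for proteases and the plasminogen system 8 were higher, beside 10.4% of all genes, and none lower. Mmp12, the macrophage elastase, was at 7.66, 3.94, 8.44 and 8.80 against 0.935, 0.945, 0.438 and 0.352 (3.29 ± 0.45, limma, adjusted p = 8.56e-05). The collagenase Mmp13 was higher by 2.31 ± 0.41, and the plasminogen activator Plau by 0.83 ± 0.12. Mmp12 was also higher than in C1q-high cells, by 1.31 (limma, adjusted p = 0.0217). Of 10 genes of TGF-beta and activin signaling without Inhba, 1 was higher and 3 were lower, near the 10.4% and 25.7% of all genes.

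Lipid genes followed, with 11 of 16 higher and 2 lower, beside 10.4% and 25.7% of all genes. The fatty acid carrier Fabp5 was at 17.4, 14.8, 13.1 and 18.1 against 4.02, 2.44, 2.53 and 2.52 (2.44 ± 0.21, limma, adjusted p = 1.95e-06). Cd36, a scavenger receptor for fatty acids, was at 0.809, 0.490, 0.774 and 0.400 against 0.0781, 0.0331, 0.0505 and 0.0147 (2.29 ± 0.23, limma, adjusted p = 6.83e-06). Its Arg1-low values were thus below the mean of 0.1 needed for testing in each library. The lipid droplet gene Plin2, the cholesterol exporter Abca1, the scavenger receptor Msr1 and Gpnmb were higher by 1.13 ± 0.11, 1.82 ± 0.19, 0.90 ± 0.14 and 2.05 ± 0.28. The lipoprotein lipase gene Lpl was lower (-0.86 ± 0.22), a call lost without library 5 (-0.70), with Arg1 of at least 3 (-0.58) and with a pseudocount of 1 (-0.16).

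In the lysosomal list 10 of 17 genes were higher and 2 lower, beside the same shares of all genes. The protease gene Ctsl was at 31.5, 33.3, 31.8 and 26.1 against 6.48, 6.89, 6 and 6.71 (2.21 ± 0.12, limma, adjusted p = 9.56e-08) and was higher than in every other class. Ctsb, Ctsd and Lgmn, further lysosomal proteases, were higher than in Arg1-low cells by 1.12 ± 0.12, 1.09 ± 0.13 and 1.22 ± 0.13. Against C1q-high cells Lgmn was lower (-0.73 ± 0.13, limma, adjusted p = 0.000195), and for Ctsb the difference was 0.01 (limma, adjusted p = 0.965). Ctsk, a collagen-cleaving cathepsin, was lower than in Arg1-low cells, at 1.07, 0.245, 0.0806 and 0.267 against 4.11, 2.43, 4.22 and 2.56 (-3.04 ± 0.72, limma, adjusted p = 0.00479). A count of Ctsk was found in 6.62% of Arg1-high cells. In library 2 a single cell held 127 of the 140 counts, and the mean was 0.10 without it.

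The markers of monocytes and macrophages were read to test the label. Of 9 monocyte markers 7 were lower than in Arg1-low cells, beside 25.7% of all genes, and 1 was higher. Ly6c2 was at 0.313, 0.347, 0.387 and 0.533 against 1.35, 1.53, 1.52 and 1.32 (-1.65 ± 0.16, limma, adjusted p = 5.18e-06). Ccr2, the receptor of Ccl2, was at 2.75, 3.57, 3.08 and 3.6 against 4.75, 6.32, 5.97 and 6.73 (-0.85 ± 0.14, limma, adjusted p = 0.000357), and Hp, encoding haptoglobin, at 0.504, 1.16, 1.35 and 1.13 against 4.19, 6.21, 4.79 and 5.67 (-2.28 ± 0.16, limma, adjusted p = 4.88e-07).

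The monocyte genes Plac8 (-1.01 ± 0.16), Ms4a4c (-1.03 ± 0.14) and Chil3 (-0.83 ± 0.25) were lower as well, but the Chil3 call was lost without library 2 (-0.42) or 3 (-0.79). It was also lost with a pseudocount of 0.01 (-0.99), with no filter on low values and with S100a8 and S100a9 under 100 (-0.81). In library 4 Chil3 was at 0.290 against 0.284, and a single cell held 16 of its 18 counts. F13a1, a coagulation factor subunit of monocytes, was higher, at 5.18, 5.90, 6.18 and 5.93 against 3.08, 3.27, 3.11 and 3.64 (0.80 ± 0.12, limma, adjusted p = 0.000204). Vcan did not pass (-0.15 ± 0.28, limma, adjusted p = 0.710). The 9 markers together summed to 20.4, 25.5, 24.5 and 29.6 in Arg1-high cells, against 40.3, 41.4, 40.8 and 45.8 in Arg1-low and 9.79, 15.03, 9.17 and 10.1 in C1q-high cells. Against C1q-high cells 8 of the 9 were higher, beside 25.1% of all genes, and 1 was lower.

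Of 10 macrophage markers 8 were higher than in Arg1-low cells, beside 10.4% of all genes, and 2 lower. The mannose receptor Mrc1 was at 2.86, 1.45, 1.05 and 1.70 against 0.544, 0.220, 0.363 and 0.331 (1.96 ± 0.23, limma, adjusted p = 2.91e-05), below the 2.51 to 5.82 of C1q-high cells. Trem2, a lipid-sensing receptor, was higher by 0.99 ± 0.15, Ms4a7 by 1.35 ± 0.25 and Folr2 by 1.49 ± 0.33. Folr2 was at 0.779, 0.327, 0.0645 and 0.0667 against 0.0165, 0.0110, 0.00962 and 0.0168. In library 5 its 2 counts came from a single cell, and the mean was 0 without it. Adgre1, which encodes F4/80, and the fractalkine receptor Cx3cr1 were lower, with log2 differences of -0.47 ± 0.11 and -1.39 ± 0.24. The Adgre1 call was lost with Csf1r of at least 2 (-0.41). Against C1q-high cells 6 of the 10 were lower, beside 31.9% of all genes. The summed monocyte markers of Arg1-high cells lay between those of Arg1-low and C1q-high cells in each library. Single markers did not all do so, as Adgre1, Cx3cr1 and Ms4a4c were lower and F13a1 higher than in every other class. From the counts of markers, the word monocyte-like was not borne out against Arg1-low cells.

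**Figure D4:**
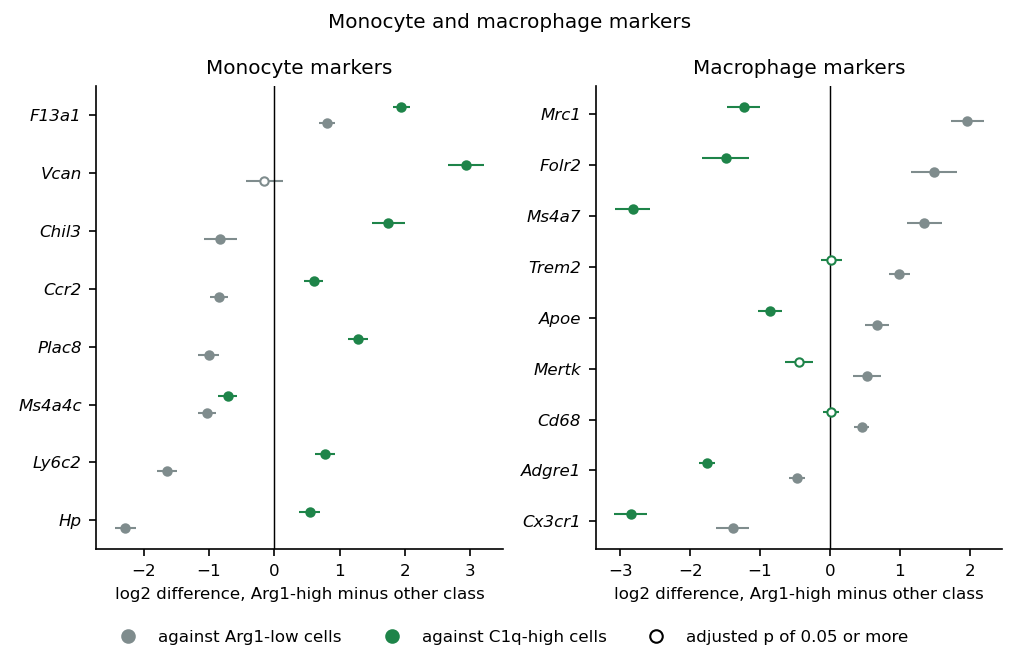
Log2 differences of 8 monocyte and 9 macrophage markers between Arg1-high cells and Arg1-low (grey) or C1q-high cells (green). Points are limma estimates with standard errors from the shared fit over 4 classes and 4 libraries. Filled points have an adjusted p under 0.05; of those shown, 6 monocyte markers are lower and 7 macrophage markers higher than in Arg1-low cells, and 7 monocyte markers are higher and 6 macrophage markers lower than in C1q-high cells.

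Other lower genes in the named sets were Tmem176b and Tmem176a, membrane proteins, at 0.0667 to 0.5 and 0.1 to 0.468 in Arg1-high cells against 1.53 to 2.41 and 1.02 to 1.65 in Arg1-low cells. Mt3, another metallothionein, was at 0.0229 in library 2 and at 0 in the other libraries, against 0.354 to 1.101. Itga4, an integrin of migrating leukocytes, was at 0.267, 0.449, 0.210 and 0.433 against 1.37, 1.06, 1.46 and 1.31 (-1.70 ± 0.18, limma, adjusted p = 1.2e-05). Lrg1, Ifitm6 and Arhgap26 were lower, with log2 differences of -1.82 ± 0.28, -1.71 ± 0.15 and -1.69 ± 0.21. Ckb, a creatine kinase, was lower (-1.54 ± 0.17) and, at 0.0333 to 0.260, lower than in every other class.

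Since 3 class II genes were part of the choice, other MHC class II genes give no separate support against MHC-II-high cells. There 7 of the 7 tested were lower, beside 26.9% of all genes. Arg1-low cells met the same class II limit as Arg1-high cells. Cd74, the invariant chain, was at 8.92, 4.49, 3.55 and 7.37 in Arg1-high and at 6.45, 4.28, 5.85 and 5.39 in Arg1-low cells (0.07 ± 0.20, limma, adjusted p = 0.825). The class II transactivator Ciita and H2-DMa, which loads peptides, were lower nevertheless, with log2 differences of -0.91 ± 0.13 and -0.68 ± 0.11. Ciita was near the floor. Among Arg1-high cells it had a count in 3 cells of library 2 and 1 of library 3 alone, with means of 0.0229 and 0.0204 against 0.0856 and 0.110. H2-DMb1 was lower (-0.53 ± 0.19) and lost this call with a pseudocount of 1 (-0.09), after centring and without library 2 (-0.54), 3 (-0.37) or 4 (-0.41), and H2-DMb2 did not pass (-0.35 ± 0.18, limma, adjusted p = 0.156). Cd274, encoding PD-L1, did not pass (0.30 ± 0.18, limma, adjusted p = 0.219). Nt5e, the adenosine-forming CD73, was the 1 higher gene among 10 checkpoint ligands and suppressive enzymes (1.4 ± 0.15), and 1 was lower, so the count of higher genes was near the 10.4% of all genes. Of the 7 class II pathway genes tested 4 were lower and none higher, beside 25.7% of all genes lower.

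Around Il7r, 1 of 11 further genes of IL-7 and TSLP receptor signaling was higher and 4 were lower, beside 10.4% and 25.7% of all genes, so the count of higher genes was near that background. Crlf2, the partner of Il7r in the TSLP receptor, was at 0.534, 0.612, 0.661 and 0.400 against 0.832, 0.727, 0.822 and 0.792 (-0.47 ± 0.12, limma, adjusted p = 0.00889). A Crlf2 count was found in 46.0% of Arg1-high cells, 44.9% of T cells and 36% of B cells without Csf1r. The share was 43.7% in cells with a summed S100a8 and S100a9 count of at least 300. Crlf2 counts were thus about as frequent in unrelated cells, and their source was not tested. Il2rg, the partner in the IL-7 receptor, was at 0.374, 0.347, 0.435 and 0.233 against 0.521, 0.457, 0.570 and 0.556 (-0.50 ± 0.14, limma, adjusted p = 0.0102). The Crlf2 call was lost without library 2 (-0.44) or 5 (-0.35), and the Il2rg call without library 5 (-0.34). The feedback inhibitor Socs1 was lower (-0.86 ± 0.17) and the survival gene Bcl2l1 higher (1.12 ± 0.16).

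Of 10 cell cycle genes that passed the filter on low values, 8 were lower than in Arg1-low cells and none higher, beside 25.7% of all genes lower. With no filter on low values, 9 of 17 genes of the list were lower and none higher, with a median of -0.50. With a mean of at least 0.5 required, no gene of the list could be tested, so the calls rest on genes with low values. With Csf1r of at least 2 the count was 5 of 10 and the median -0.65 in place of -1.02. The median depended on the pseudocount, at -0.18 with 6 of 10 lower for a pseudocount of 1 and -2.25 with 8 of 10 lower for 0.01. Mki67, a marker of cycling cells, was at 0.0382, 0.224, 0.0645 and 0.0333 against 0.132, 0.631, 0.440 and 0.419 (-1.4 ± 0.27, limma, adjusted p = 0.00128), and Ube2c was lower too (-1.56 ± 0.20). The Mki67 call was lost with Csf1r of at least 2 (-0.76). Against MHC-II-high cells neither passed, with adjusted p of 0.373 and 0.751 by limma.

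Among 18 myeloid transcription factors 6 were higher and 5 lower, beside 10.4% and 25.7% of all genes, so the share of lower genes was near that background. Maf was at 3.29, 4.14, 2.61 and 3.17 against 1.60, 1.27, 1.29 and 1.20 (1.23 ± 0.14, limma, adjusted p = 1.61e-05) and was higher in each library. Spi1, encoding PU.1, was at 2.27, 2.18, 2.08 and 2.13 against 3.87, 3.39, 3.54 and 3.53 (-0.70 ± 0.10, limma, adjusted p = 9.47e-05), lower than in every other class. Of 19 immediate-early genes 6 were higher, beside 10.4% of all genes, and none lower. Egr1 was higher by 0.95 ± 0.22, a call lost with Csf1r of at least 2 (0.56). Ier3 did not pass (0.36 ± 0.17, limma, adjusted p = 0.117) but passed after centring, and Ier2 differed by -0.23 ± 0.13 (limma, adjusted p = 0.210). The early gene Klf6 was higher by 0.84 ± 0.11.

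The remaining lists gave few calls. Of 10 genes of alternative activation without Ccl24 2 were higher and 1 lower, of 11 chemokine receptors 1 was higher and 2 lower, and of 11 heat shock genes 1 was higher and 3 lower. These counts stand beside 10.4% of all genes higher and 25.7% lower.

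The Arg1-high cells were not uniform. Divided by their own Arg1 count into tiers of 94 cells with 5 to 16 counts, 88 with 17 to 34 and 90 with 35 to 150, they showed Pf4 means over the libraries of 4.95, 13.2 and 39.998 from the low to the high tier. Pdpn was at 0.728, 1.41 and 3.82, Ctsl at 17.5, 27.2 and 45.4, and Mrc1 at 0.744, 1.24 and 3.31. Spearman correlations with Arg1 across cells within a library ran from 0.39 to 0.66 for Pf4, from 0.40 to 0.52 for Pdpn and from 0.12 to 0.65 for Ctsl, over 131, 49, 62 and 30 cells that share a library and its depth. These 3 genes and Mrc1 were higher in the high than in the low tier in every library.

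Spp1 had means of 7.53 in the low and 30.9 in the high tier, with library 5 at 3 and 6. Pgk1 was at 15.3, 15.1 and 17.1 and was also higher in the high than in the low tier in every library. Bnip3 (6.50, 6.37 and 6.26), Il7r (4.10, 4.85 and 4.36) and Nos2 (4.89, 3.42 and 3.73) were not highest in the high tier. Sdc1 was lower in the high tier, at 0.995 against 2.29 in the low tier. The tiers hold as few as 6 cells in library 5, and no test was made because Arg1 is part of the rule.

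**Figure D5:**
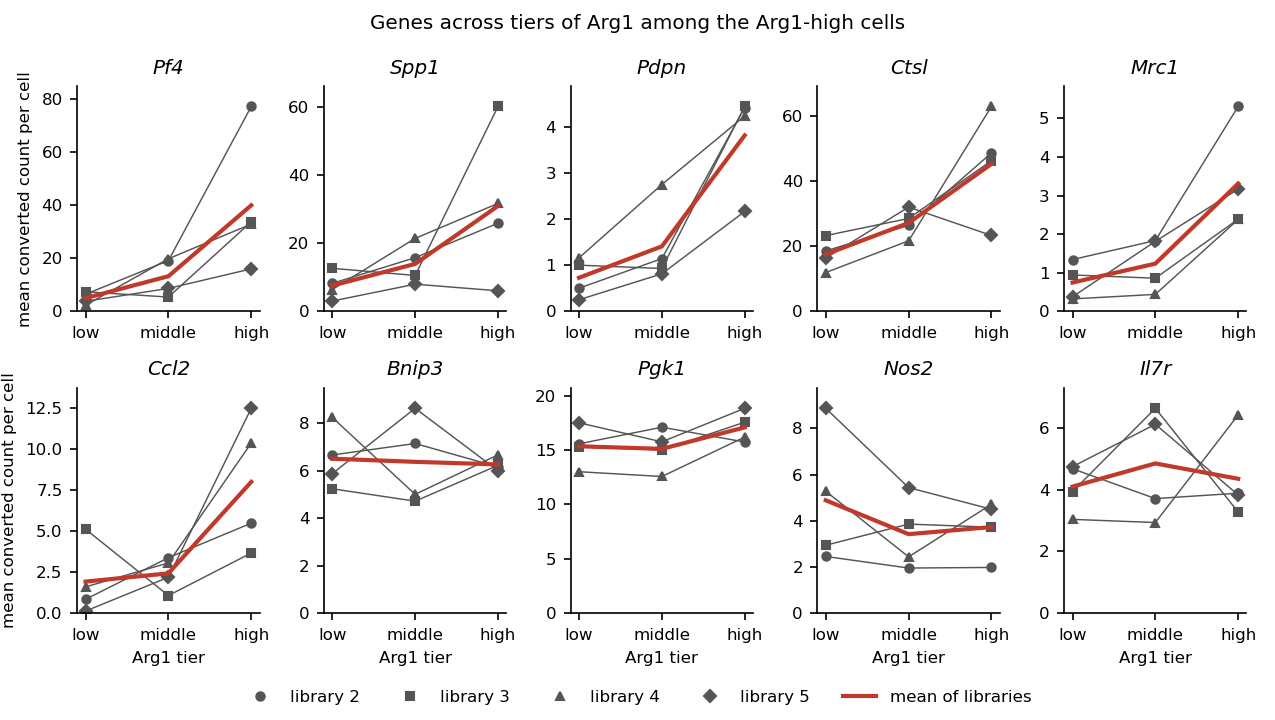
Mean converted count per cell of 10 genes in tiers of the Arg1-high cells by their Arg1 count (5 to 16, 17 to 34 and 35 to 150). Grey lines are the libraries and red lines their means: Pf4, Pdpn, Mrc1 and Ccl2 are highest in the high tier on the mean, while Bnip3, Nos2 and Il7r are not.

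Some genes were concentrated in few of the cells. Pf4 and Spp1 were detected in 68.0% and 65.8% of the Arg1-high cells and together in 46.0%. Pf4 had a count in 2.67% of the B cells, 2.56% of the T cells and 10.99% of the 5030 cells with a summed S100 count of at least 300. Spp1 had a count in 0.889% of the B cells, but in 35.9% of the T cells and 22.6% of those 5030 cells, against 26.8% of Arg1-low cells. Serpinb2 was detected in 13.2%, and the highest 10% of cells held 97.8% of its counts. Bnip3 was detected in 95.6% and Pgk1 in 100% of cells, with 27.4% and 21.8% of counts in the highest 10% of cells. Nos2 and Pf4 correlated at -0.31 to -0.11 across the cells of a library.

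The cultured macrophages gave levels of the same genes in cells the choice had not used. The mean Arg1 count over all their cells, which were not chosen for Arg1, was 0.0672 and 0.0481 in B-MF libraries 1 and 2 and 1.82 and 1.76 in Mo-MF libraries 1 and 2, with a count in 1.79%, 1.28%, 19.8% and 21.1% of cells. The given markers Il7r (2.22 and 2.39 in B-MF, 5.36 and 5.58 in Mo-MF) and Thbs1 (1.30 and 1.22, 2.52 and 2.51) were also higher in Mo-MF, whereas Ccl24 was at 0.497 and 0.467 in B-MF and at 0.0462 and 0.0421 in Mo-MF. Inhba stayed at or below 0.0326 and Nos2 at or below 0.0169 in all 4 libraries.

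Between the cultures 1955 of 8633 genes were higher in B-MF (22.6%) and 1458 were lower (16.9%), with no block in the model. Pf4 was at 143.2 and 139.6 in B-MF and at 32.3 and 29.6 in Mo-MF (2.19 ± 0.06, limma, adjusted p = 1.01e-07), and Mrc1 was likewise higher in B-MF by 0.92 ± 0.05. Pdpn (-2.32 ± 0.05), Fn1 (-2.44 ± 0.06), Ctsl (-1.27 ± 0.05) and Cxcl3 (-1.54 ± 0.08) were higher in the Mo-MF libraries. Spp1 was at 87.7 and 86.2 against 91.5 and 94.4 (-0.10 ± 0.05, limma, adjusted p = 0.168). The genes that were higher in Arg1-high tumor cells were thus found on both sides of the cultures. These means are over all cells of a culture library. All 9 neutrophil markers (median -4.25) and 7 of 8 monocyte markers (median -2.28, 1 higher) were lower in B-MF, beside 16.9% of all genes. The part of such other cells in the Mo-MF values was not tested. Of 13 hypoxia response genes tested in culture 1 was higher in B-MF and 5 were lower, and of 16 glycolysis genes 1 was higher and 10 were lower. With 2 libraries of each kind, limma borrowed most of its variance information from the other genes.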

How the data were processed

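Cells of 4T1.2 tumors and of B-MF and Mo-MF cultures were sequenced with a 10x 3' kit and aligned to mm10. The authors kept cells with at least 1000 detected genes, corrected counts for depth by SCTransform, and deposited them as natural log values after adding 1. Values were brought back to whole numbers (largest relative deviation 5.63e-07), and no count model was fitted because they are corrected. The members, gene lists and naming rules were chosen with earlier results of these data known, and the respiratory chain, mitochondrial genome and platelet lists after values were seen. Lists were taken by their counts and 2 to 4 examples, and genes were named as the 10 largest differences per direction with an adjusted p under 0.05, one sign in all 4 libraries and a mean of at least 0.5 in the higher group.

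Library means over cells were compared on log2(mean + 0.1) with limma 3.58.1 in R 4.3.3, BH-adjusted over genes with a mean of at least 0.1. The fit was also run on simulated library means with planted differences and normal noise. That simulation does not cover means that rest on a single cell. With 4 paired libraries a permutation test could not go below p = 0.125. Median totals per cell of 7651 to 8266 corrected counts limit what a low gene can show. Doublets were not called. Tables were read with pandas 2.3.3 in Python 3.11.15. Promoter windows came from RefSeq. The alternatives varied the pseudocount, filter, scaling, block, cell limits and libraries. The 13 peak files were not used here. Counts in the top cell of a library were read after values had been seen. Some genes are not reported here.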

Additional observations from a re-analysis of the deposited data

Results flagged for a closer look

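In 134 groups of 4 library means, 7 had a library far from the other 3, which is near the share of about 1 in 20 that chance gives. The list below is therefore a description. In Arg1-high cells Serpinb2 was highest in library 5, with a mean count of 2.80 of which a single cell held 68 of 84 counts (0.552 without that cell), and so was Egln3 with 3.1. Ldha stood apart in library 2 with 11.3. Library 2 also held the only counts of Mt3, a mean of 0.0229, and most of those of Ccl5, a mean of 0.176 with 18 of 23 counts in a single cell. Library 3 stood apart in Slc40a1 with 0.388 and in Mki67 with 0.224, where a single cell held 8 of 11 counts.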

How the results depend on the processing

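Of 268 tested differences of named genes 243 passed, 183 of these in every setting, 29 were lost without at least 1 library and 57 in another setting, and 2 changed sign. Many of these genes were named because they had passed, so the share that passed is no result. Of all genes, 10.4% were higher and 25.7% lower than in Arg1-low cells. Against all other Csf1r+ cells the shares were 10.5% and 21.8%. Centring and the limit of 2200 detected genes were chosen after seeing the data. Against all other Csf1r+ cells, higher genes numbered 421 with Csf1r of at least 2 and 441 to 682 with 1 library left out (441 without library 2, 454 without 4). Lower genes numbered 808 with a mean of at least 0.5, 730 with Csf1r of at least 2 and 821 to 1207 with 1 library left out (821 without library 2, 897 without 4). Against Arg1-low cells, 391 were higher and 919 lower with a mean of at least 0.5, 1126 lower with Csf1r of at least 2, and 483 to 613 higher and 1054 to 1576 lower with 1 library left out (1131 without library 4, 1054 without 5). Against every other class, 261 were higher and 579 lower with a mean of at least 0.5, 596 lower with Csf1r of at least 2, and 314 to 387 higher and 551 to 821 lower with 1 library left out (599 without library 4, 551 without 5). Between cultures 951 were lower with a mean of at least 0.5, and 1112 to 3855 were higher and 863 to 2950 lower with 1 library left out, when the lone library is assumed to vary like the others. The share of Arg1-high cells was 6.46% to 8.12% with 1 library left out. The causes were not tested.

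Some signs changed, and the 2 differences that had passed were those of Csf3r. Against all other cells Csf3r was at 0.053 with 2200 genes, and Slc40a1 at 0.0010 with S100 under 100, 0.012 centred and 0.33 with 2200 genes. With 1 library left out, Chil3 ran from -0.56 to 0.022 (without library 2), Ier2 from -0.19 to 0.11 (without 3) and Slc40a1 from -0.34 to 0.11 (without 5). Against Arg1-low cells Cd74 was at -0.16 with Arg1 of at least 10, -0.10 with S100 under 100 and -0.15 with 2200 genes. Hif1a was at -0.015 with Csf1r of at least 2, Csf3r at 0.052 with 2200 genes, Il1b at -0.0086 scaled, and Slc40a1 at -0.010 scaled, -0.0053 with Arg1 of at least 3 and -0.12 with Csf1r of at least 2. With 1 library left out, Cd74 ran from -0.065 (without library 2) to 0.32, Il1b from -0.046 (without 3) to 0.14 and Slc40a1 from -0.091 (without 3) to 0.22.

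Classes came from the same libraries, so the library was the block. With no replicate block, 667 genes were higher and 1390 lower than in all other cells, 627 and 1524 than in Arg1-low cells, and 406 and 851 than in every other class. The culture numbers share only a number, and with a replicate block 2238 genes were higher and 1670 lower.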
